A study of Mus musculus with 3 samples.

Results

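The genes described here encode the enzymes of fatty acid beta-oxidation in mitochondria and peroxisomes, the acyl-CoA thioesterases, and the peroxins that build peroxisomes. Members were taken by their symbols, which were those of the acyl-CoA dehydrogenases, acyl-CoA oxidases, acyl-CoA thioesterases, peroxins and carnitine palmitoyltransferases together with a short list of single enzymes. This gave 54 genes of 19321 gene symbols on the array, and they were read by 57 probes. For genes with 2 probes the brighter on average over the 3 arrays was used.

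RNA of cultured mouse biliary epithelial cells (BECs), the cells that line the bile ducts, was measured on 3 one-colour microarrays. The first held RNA of BECs kept in serum-depleted medium, the second RNA of BECs given 200 μM glycochenodeoxycholic acid (GCDC), a bile acid joined to glycine, and the third RNA of untreated control BECs. Treatment lasted 4 to 7 days by the labels, while the array comparison is elsewhere described as one of 7 days, and the labels call both treated cultures senescent. The BECs came from livers of female BALB/c mice aged 8 weeks, and each array carried RNA pooled from 2 experiments. Their growth medium held Nu-serum, epidermal growth factor, insulin and forskolin, an activator of adenylyl cyclase. With 1 array for each condition no difference below has a replicate check, no test was possible, and precision is limited by the small number of arrays. In such bulk RNA, fewer cells of a kind and less RNA per cell cannot be told apart.

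In beta-oxidation a fatty acid bound to coenzyme A is shortened in repeated rounds of oxidation, hydration, a further oxidation and cleavage. Long chains enter mitochondria as carnitine esters, while very long and branched chains and the side chains of bile acid precursors are shortened in peroxisomes. Thioesterases release the free fatty acid again, and peroxins import enzymes into peroxisomes, place their membrane proteins and divide them. In the liver these genes are best known from hepatocytes, where the nuclear receptor PPAR alpha controls many of them.

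A level below is the intensity of a probe minus the mean of the blank spots, scaled so that the valid probes of every array have a median of 25. Probes were valid if they exceeded that mean by over 2 SD. The lowest valid level was 1.37 in serum depletion, 1.18 in GCDC and 1.002 in control. Ratios are given as log2 of a treated level over the control level, and "rose" and "fell" are kept for changes of more than 2-fold, which is a log2 ratio past 1. On the arrays themselves, 24 spots each of 2 positive controls gave a log2 ratio an SD of 0.28 in serum depletion and 0.23 in GCDC. Different probes bind with different strength, so the level of a gene was set against that of the same gene on another array and not against other genes, and summed levels below serve only to compare arrays. Of 12 cholangiocyte markers, which are expected of BECs, 12 were valid on all arrays, with a summed level of 92967 in serum depletion, 136502 in GCDC and 86586 in control. Of these 12 markers *Aqp1*, a water channel, fell (log2 -1.76 in serum depletion and -3.17 in GCDC), and *Krt19*, a keratin, rose in GCDC (1.05, and -0.18 in serum depletion). Most of each cholangiocyte sum was *Krt19* and the other keratins *Krt7*, *Krt8* and *Krt18*. *Sox9* was low, at 20.6 in serum depletion, 23.1 in GCDC and 16.7 in control. Of 11 hepatocyte markers 10 were valid, with sums of 588, 307 and 280.5 on the same arrays, Tat, a hepatocyte amino acid enzyme, was not valid on any array, and albumin lay at 2.34, 3.44 and 3.66. Among the hepatocyte markers *Ttr* had 288 in serum depletion, 50.4 in GCDC and 36.9 in control, and *Hnf4a* had 133, 108 and 135 on these arrays. Besides *Ttr*, *Serpina1a* rose in serum depletion (log2 1.53, and 0.98 in GCDC) and *Ahsg* in GCDC (1.18, and 0.47 in serum depletion), while no hepatocyte marker fell. Macrophage markers summed to 2380, 2921 and 1564 on these arrays, with *Adgre1* not valid on any array. Most of each macrophage sum was the single gene *Cd14*, at 2278 in serum depletion, 2792 in GCDC and 1469 in control. Mesenchymal markers summed to 93.6 in serum depletion, 88.96 in GCDC and 65.5 in control, and endothelial markers to 57.0, 58.9 and 27.7. Most of each endothelial sum was *Kdr*, at 49.1 in serum depletion, 50.8 in GCDC and 20.4 in control. The part of these markers in the results was not tested.

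In serum-depleted BECs 11 of 53 measured members rose (20.8%) and 1 fell (1.89%). Of all 16575 genes measured on both arrays 14% rose and 10.9% fell. The members that rose were *Acot13*, *Eci1*, *Pex11a*, *Acox2*, *Eci2*, *Etfb*, *Acot1*, *Pex11g*, *Hadhb*, *Acot6* and *Pex16*, and the member that fell was *Acot11*. The median log2 ratio of the members was 0.32, against 0.17 for all genes, and this difference of 0.15 turned to -0.06 under quantile normalization, -0.05 under cyclic loess and -0.01 under normexp background correction with quantile normalization. In GCDC-treated BECs 8 of 52 measured members rose (15.4%) and none fell. Among all 16781 genes measured there 13.6% rose and 8.22% fell, so the share of members that rose was close to that of all genes. The raised members were *Acot13*, *Pex11a*, *Pex11g*, *Etfb*, *Acaa1a*, *Pex16*, *Eci1* and *Acot8*. The members' median was 0.25, against 0.24 for all genes. Both comparisons share the control array, so what they have in common is not independent evidence.

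**Figure D1:**
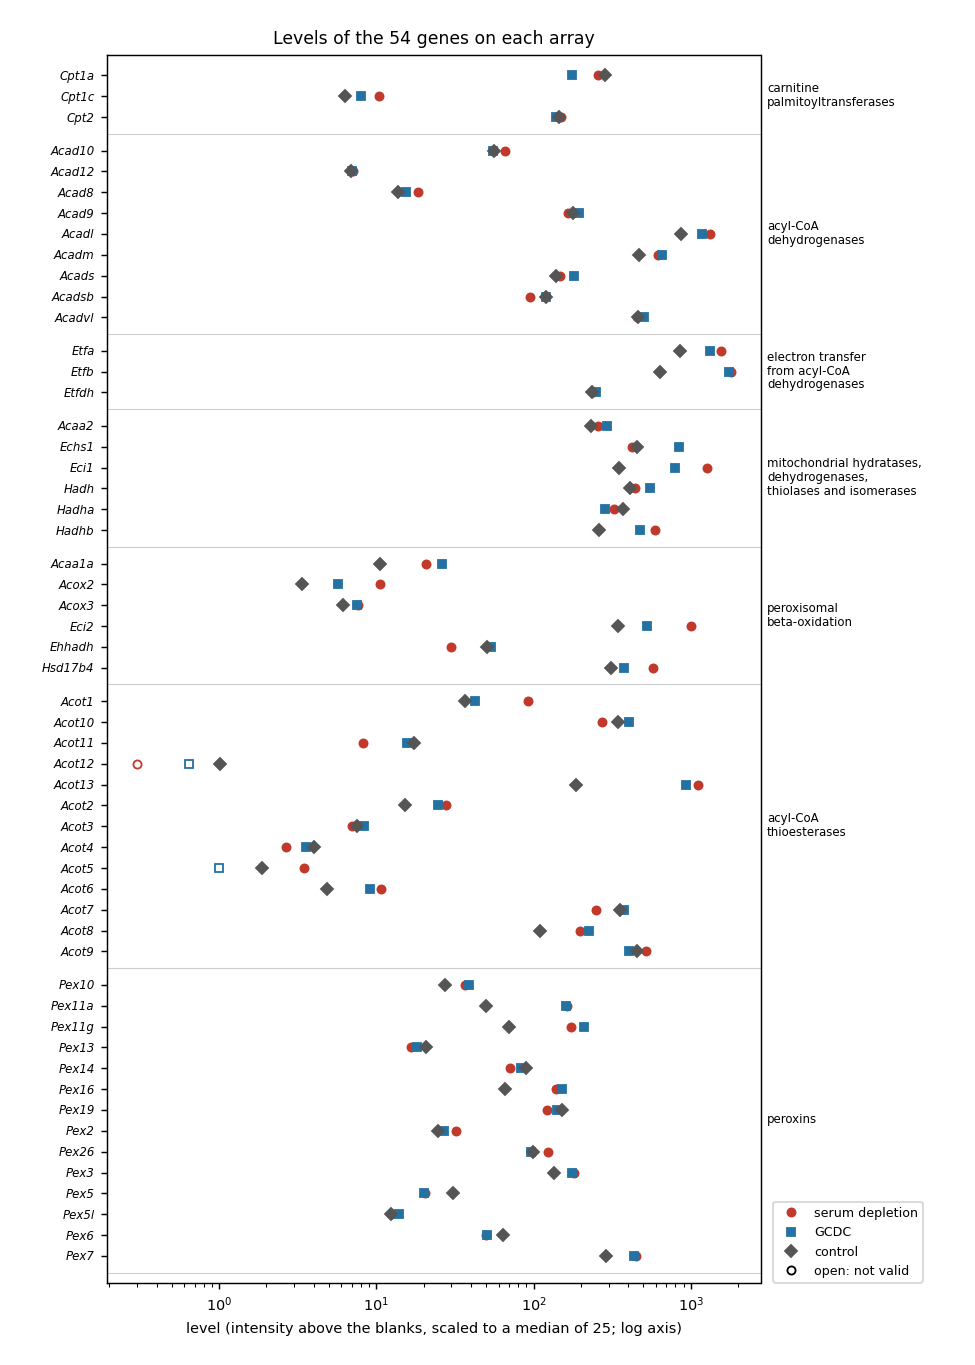
Level of each of the 54 genes on the serum depletion, GCDC and control arrays, on a log axis and grouped by role. Filled points are valid and open points are not, the open serum depletion point of Acot12 is drawn at the left because its level was near 0, and distances along the axis can be read only within a gene. *Acot13* stands at 1117 and 929 in the treated BECs, against 187 in control.

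**Figure D2:**
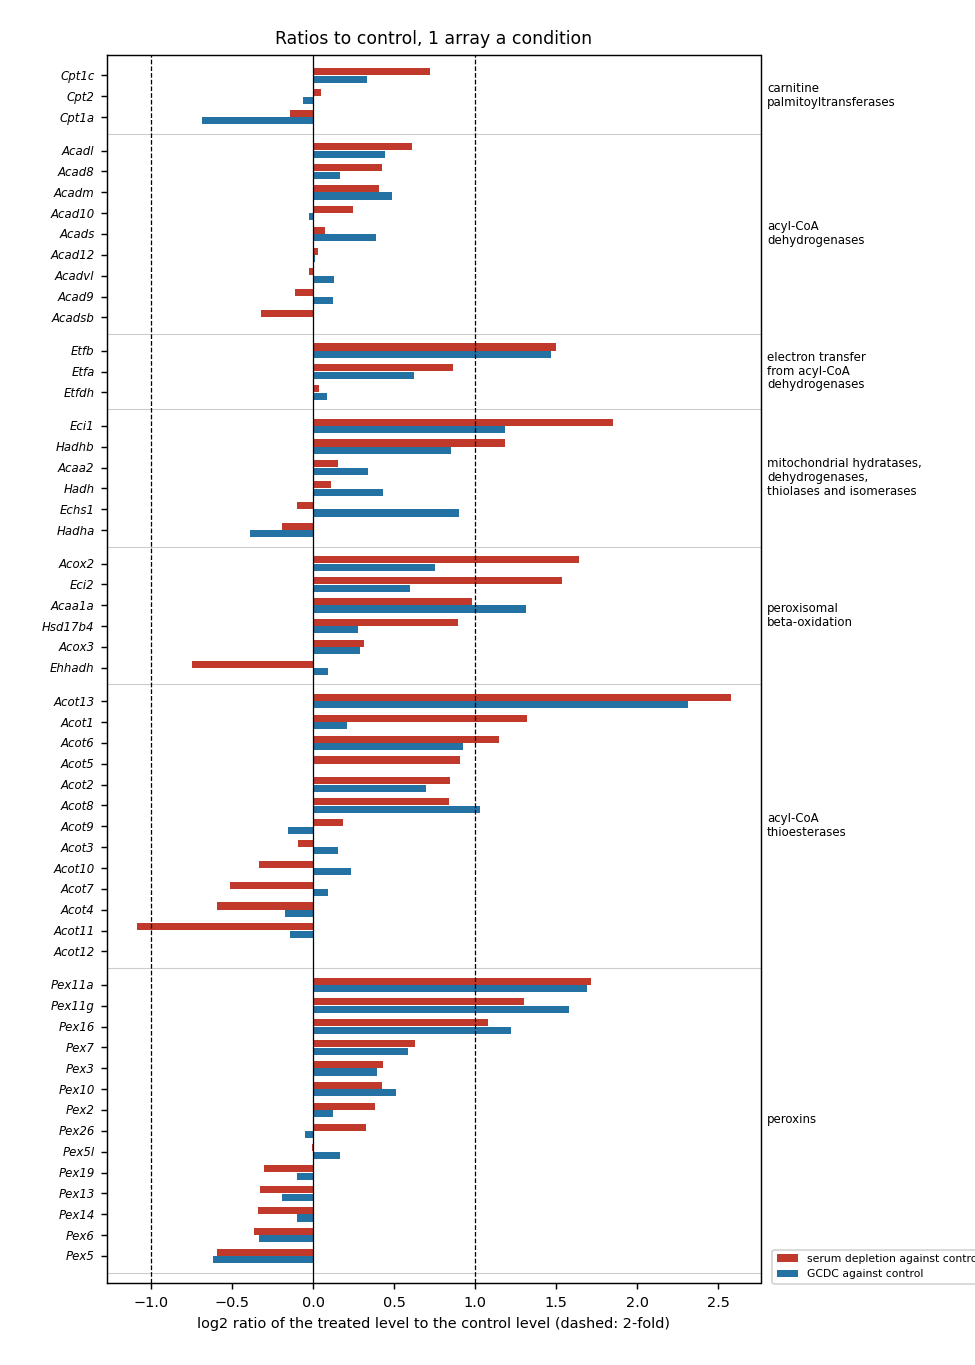
Log2 ratio of each gene to control in serum depletion and in GCDC, from 1 array for each condition, with dashed lines at 2-fold and genes ordered within each role by serum depletion. In serum depletion 11 bars pass the upper line and 1 the lower, and in GCDC 8 pass the upper line and none the lower. Ratios that could not be formed have no bar.

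*Pex11a*, *Etfb* and *Pex11g* were, apart from *Acot13*, the members with the largest rises when ranked by the smaller of their ratios on the treated arrays, so their promoters are shown from 250 bases before to 50 bases after the start site, on the strand of the gene (RefSeq, GRCm38.p6). They lie at chr7:79743082-79743381 on the minus strand (*Pex11a*), chr7:43443822-43444121 on the plus strand (*Etfb*) and chr8:3467599-3467898 on the minus strand (*Pex11g*). Capitals mark the letters AGGTCA, a nuclear receptor half-site, GGGCGG, the core of a GC box, TGACGTCA, the cyclic AMP response element, and the CCAAT box, on either strand.
Pex11a: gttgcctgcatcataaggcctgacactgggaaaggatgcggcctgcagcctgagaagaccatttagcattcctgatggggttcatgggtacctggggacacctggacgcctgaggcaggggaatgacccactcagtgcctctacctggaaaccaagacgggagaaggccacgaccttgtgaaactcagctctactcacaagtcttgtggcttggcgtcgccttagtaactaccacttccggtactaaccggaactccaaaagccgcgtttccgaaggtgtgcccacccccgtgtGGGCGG
Etfb: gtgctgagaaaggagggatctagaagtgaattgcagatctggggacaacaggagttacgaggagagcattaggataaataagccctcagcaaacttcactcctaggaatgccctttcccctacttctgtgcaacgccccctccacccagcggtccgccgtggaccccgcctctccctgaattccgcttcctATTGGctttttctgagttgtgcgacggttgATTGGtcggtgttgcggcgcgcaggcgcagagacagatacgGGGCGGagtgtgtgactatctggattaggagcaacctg
Pex11g: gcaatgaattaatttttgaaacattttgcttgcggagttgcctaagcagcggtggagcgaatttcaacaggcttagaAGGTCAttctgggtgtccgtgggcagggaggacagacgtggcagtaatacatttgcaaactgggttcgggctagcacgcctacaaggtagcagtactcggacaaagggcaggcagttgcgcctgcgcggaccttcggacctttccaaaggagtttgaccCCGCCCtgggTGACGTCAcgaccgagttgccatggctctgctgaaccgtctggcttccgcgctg
The window of *Pex11a* held a single GC box, that of *Etfb* 2 CCAAT boxes and 1 GC box, and that of *Pex11g* a half-site, a GC box and a complete cyclic AMP response element that begins 4 bases before the start site. Of 18605 promoters of array genes 2.41% held TGACGTCA, and among 53 promoters matched for 46 members it was in 2, those of *Pex11g* and *Pex13*. An exact copy of the idealised binding sequence of PPAR with its partner is 2 copies of AGGTCA with 1 base of any kind between them. It was in none of the 53 and in 0.0484% of the array genes' promoters. At so low a share 53 promoters cannot show whether the members differ from other genes. Inexact copies and sites outside the windows were not searched. The half-site AGGTCA was in 12 of the 53 (22.6%), against 14.1% of the array genes' promoters, and in 1 of the 13 promoters of raised members. Those 12 came from 10 genes, because overlapping windows of *Acot3* and of *Acot5* hold the same sites. CCAAT was in 25 (47.2%) and GGGCGG in 34 (64.2%), against 37.6% and 49.5% of the array genes' promoters. Of the 13 promoters of raised members 7 held CCAAT and 10 held GGGCGG. The E-box, CACGTG, was in 2 of the 53, against 8.38%, and in none of the 13. All motifs were searched on both strands, and each AGGTCA inside the longer repeat would count as a half-site too. A match only describes the letters in the window. The promoters of *Acaa2*, *Acad9*, *Acot13*, *Acot6*, *Hsd17b4*, *Pex19*, *Pex2* and *Pex5l* were not matched.

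The carnitine palmitoyltransferases, which carry long chains into mitochondria, had no member past 2-fold. *Cpt1a*, the liver form in the outer membrane and the usual point of control of the pathway, was measured at 256 in serum depletion and 177 in GCDC, against 284 in control. Its log2 ratio was -0.15 after serum depletion and -0.68 after GCDC, the most negative ratio of any member in GCDC. *Cpt2*, which frees the chain again at the inner membrane, had levels of 149.9, 138.8 and 145 in serum depletion, GCDC and control. *Cpt1c*, a form best known from neurons, had 10.4 in serum depletion and 7.96 in GCDC, against 6.31 in control. The median log2 ratio of the 3 genes lay 0.12 below that of all genes in serum depletion and 0.31 below it in GCDC. The promoter of *Cpt1a*, the entry step, is shown at chr19:3323051-3323350 on the plus strand with the same letters in capitals.
Cpt1a: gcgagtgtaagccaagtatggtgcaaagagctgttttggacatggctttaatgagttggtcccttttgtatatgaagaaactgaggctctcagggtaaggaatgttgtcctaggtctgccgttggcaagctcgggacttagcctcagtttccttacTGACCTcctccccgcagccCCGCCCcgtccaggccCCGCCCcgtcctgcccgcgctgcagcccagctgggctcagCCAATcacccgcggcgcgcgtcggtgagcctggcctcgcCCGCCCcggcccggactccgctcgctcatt
It held 1 half-site, 1 CCAAT box and 3 GC boxes.

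The acyl-CoA dehydrogenases carry out the first oxidation, and none of the 9 passed 2-fold in either treatment. *Acadl*, for long chains, had the highest ratio of the group in serum depletion, with levels of 1321 after serum depletion and 1177 after GCDC, against 866 in control (log2 0.61 in serum depletion and 0.44 in GCDC). *Acadm*, for medium chains, had 618 in serum depletion and 652 in GCDC, against 465 in control. *Acadvl*, for very long chains, was measured at 454 in serum depletion and 505 in GCDC, against 462 in control, and its ratios lay within the spread of the control spots. The most level of the 9 was *Acad12*, with 7.10 in serum depletion, 7.01 in GCDC and 6.95 in control. Ratios of the other 5, *Acads* for short chains, *Acadsb* and *Acad8* for branched chains from amino acids, *Acad9*, which also helps to assemble respiratory complex I, and *Acad10*, ran from -0.32 to 0.42 in serum depletion and from -0.02 to 0.39 in GCDC. The median of the group lay 0.09 below that of all genes in serum depletion and 0.11 below in GCDC.

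The electrons taken by these dehydrogenases pass to the electron transfer flavoprotein, and here the partners differed. *Etfb*, its beta subunit, rose to 1799 in serum depletion and 1758 in GCDC, against 637 in control. That is a log2 ratio of 1.498 after serum depletion and 1.46 after GCDC. *Etfa*, the alpha subunit, had 1563 in serum depletion and 1322 in GCDC, against 860 in control, which is short of 2-fold in both (log2 0.86 in serum depletion and 0.62 in GCDC). *Etfdh*, the membrane enzyme that hands the electrons to ubiquinone, was measured at 240.1 in serum depletion and 248 in GCDC, against 234 in control. Thus *Etfb* alone of the 3 passed 2-fold. Their median stood 0.38 above all genes in GCDC, but 0.20 below under quantile normalization, 0.14 below under cyclic loess and 0.11 below under normexp with quantile normalization.

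Among the mitochondrial enzymes of the later steps, *Eci1*, the isomerase that moves double bonds of unsaturated chains into the right place, rose most. Its levels were 1261 in serum depletion and 796 in GCDC, against 350 in control (log2 1.85 in serum depletion and 1.19 in GCDC). The treated arrays both lay above control, with serum depletion the higher. *Echs1*, the short-chain hydratase, had 423 in serum depletion and 845 in GCDC, against 454 in control. Its log2 ratio was -0.10 after serum depletion and 0.90 after GCDC. *Hadh*, the short-chain hydroxyacyl-CoA dehydrogenase, had 441 in serum depletion and 552 in GCDC, against 409 in control, and *Acaa2*, the thiolase of the last step, had 257 in serum depletion and 291 in GCDC, against 231 in control. Neither passed 2-fold.

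The mitochondrial trifunctional protein handles long chains with 2 subunits, and their RNAs moved apart. *Hadhb*, the thiolase subunit, rose to 596 in serum depletion and stood at 473 in GCDC, against 263 in control (log2 1.18 in serum depletion and 0.85 in GCDC). *Hadha*, the subunit with the hydratase and dehydrogenase activities, had 326 in serum depletion and 285 in GCDC, against 373 in control (log2 -0.19 in serum depletion and -0.39 in GCDC). The ratio of *Hadhb* exceeded that of *Hadha* by 1.38 log2 units in serum depletion and 1.23 in GCDC, and over the alternatives of processing by 1.23 to 1.38 in serum depletion and 1.12 to 1.27 in GCDC. These genes lie head to head on chromosome 5, with start sites at 30155253 (*Hadhb*) and 30154980 (*Hadha*), 273 bases apart. The promoter of *Hadhb* is therefore shown, at chr5:30155003-30155302 on the plus strand, with capitals for the 228 bases that also belong to the promoter window of *Hadha*.
Hadhb: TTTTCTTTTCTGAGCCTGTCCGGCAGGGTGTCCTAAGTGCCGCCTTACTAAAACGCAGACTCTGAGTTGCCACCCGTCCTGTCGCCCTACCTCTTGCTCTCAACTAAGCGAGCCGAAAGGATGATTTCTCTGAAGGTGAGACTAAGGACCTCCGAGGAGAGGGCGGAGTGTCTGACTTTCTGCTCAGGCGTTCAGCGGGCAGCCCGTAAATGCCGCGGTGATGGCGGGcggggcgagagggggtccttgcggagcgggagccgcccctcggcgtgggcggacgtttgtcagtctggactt
The shared stretch holds a GC box and no half-site, CCAAT box or cyclic AMP response element.

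**Figure D3:**
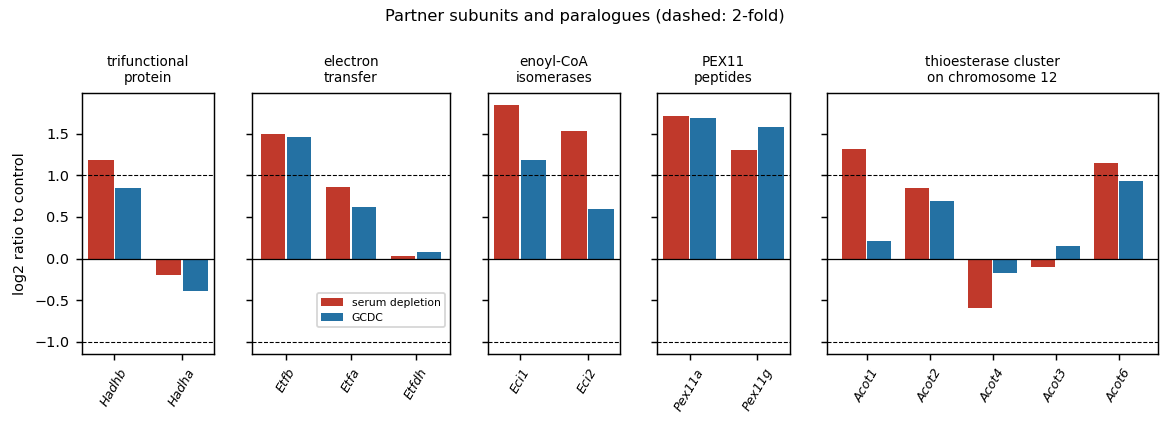
Log2 ratio to control in serum depletion and in GCDC for genes that work as partners or are relatives, with dashed lines at 2-fold and 1 array behind each bar. *Hadhb* and *Hadha* lie on opposite sides of control in both treatments, and *Etfb* stands at 1.498 in serum depletion and 1.46 in GCDC while *Etfdh* is near 0. *Acot5*, not valid in GCDC, is left out of the cluster on chromosome 12.

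In the peroxisomal pathway 2 of 6 genes rose with serum depletion (33.3%) and 1 of 6 with GCDC (16.7%), against 14% and 13.6% of all genes. *Acox2*, the oxidase for branched chains and for bile acid intermediates, rose to 10.51 in serum depletion and had 5.69 in GCDC, against 3.38 in control (log2 1.64 in serum depletion and 0.75 in GCDC). All 3 of these levels are low. *Eci2*, the isomerase of peroxisomes, rose to 1002 in serum depletion and had 523 in GCDC, against 346 in control, a log2 ratio of 1.53 after serum depletion and 0.60 after GCDC. *Acaa1a*, the thiolase, rose in GCDC to 26.1, and in serum depletion its level of 20.7 was just short of 2-fold, against 10.49 in control (log2 0.98 in serum depletion and 1.32 in GCDC). Its near-identical relative *Acaa1b* lay at 412.5, 274 and 195.05 in serum depletion, GCDC and control, and how far each probe reads the other gene was not tested. The bifunctional enzymes of the middle steps lay on opposite sides of control in serum depletion but not in GCDC. *Hsd17b4*, the one that serves bile acid side chains, had 577 in serum depletion and 375 in GCDC, against 310 in control (log2 0.90 in serum depletion and 0.28 in GCDC). *Ehhadh*, the other, had 30.001 in serum depletion and 53.6 in GCDC, against 50.4 in control (log2 -0.75 in serum depletion and 0.09 in GCDC). *Acox3*, an oxidase for branched chains, had ratios of 0.32 after serum depletion and 0.29 after GCDC. The median of the 6 stood 0.77 above that of all genes in serum depletion and 0.20 above in GCDC, and it stayed above, by 0.24 or more in serum depletion and 0.03 or more in GCDC, under the alternatives of processing.

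The thioesterases held the widest range. *Acot13*, a small thioesterase of the mitochondrial surface and cytosol, had the largest ratio of all members on both treated arrays. It rose to 1117 in serum depletion and 929 in GCDC, against 187 in control (log2 2.58 in serum depletion and 2.31 in GCDC). *Acot8*, a peroxisomal thioesterase, rose in GCDC to 226 and had 198 in serum depletion, against 111 in control (log2 0.84 in serum depletion and 1.03 in GCDC). *Acot11*, a thioesterase known from brown fat, fell to 8.20 in serum depletion, with 15.8 in GCDC and 17.4 in control (log2 -1.09 in serum depletion and -0.14 in GCDC). Its other probe was not valid on any array. *Acot7*, best known from brain, had 248 in serum depletion and 377 in GCDC, against 354 in control. The mitochondrial *Acot9* had 517 in serum depletion and 407 in GCDC, against 455 in control, and its close copy *Acot10* had 273 in serum depletion and 405 in GCDC, against 345 in control. *Acot12*, a cytosolic enzyme that cleaves acetyl-CoA, was valid only in control, at 1.02, so that no ratio could be formed. Of the 12 measured genes 3 rose (25%) and 1 fell (8.33%) in serum depletion, against 14% and 10.9% of all genes. Of 11 measured in GCDC 2 rose (18.2%), against 13.6% of all genes. The median of the group lay 0.34 above all genes in serum depletion, but 0.17 below under cyclic loess and 0.002 below under normexp with quantile normalization.

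Of the thioesterases, 6 sit side by side within 121.9 kb of chromosome 12 (chr12:83987861-84109783), in the order *Acot2*, *Acot1*, *Acot4*, *Acot3*, *Acot5* and *Acot6*. They are copies of each other that act in different compartments, *Acot1* in the cytosol and *Acot2* in mitochondria, and how far their probes read each other was not tested. *Acot1* rose to 91.8 in serum depletion and had 42.5 in GCDC, against 36.7 in control (log2 1.32 in serum depletion and 0.21 in GCDC). *Acot6* rose to 10.7 in serum depletion and had 9.17 in GCDC, against 4.82 in control (log2 1.15 in serum depletion and 0.93 in GCDC). *Acot2* had 27.6 in serum depletion and 24.8 in GCDC, against 15.3 in control (log2 0.85 in serum depletion and 0.70 in GCDC). Within the cluster *Acot4* had the lowest ratio in serum depletion. *Acot4* had 2.67 in serum depletion and 3.57 in GCDC, against 4.03 in control, close to the floor of the arrays. *Acot3* had 7.03 in serum depletion and 8.36 in GCDC, against 7.51 in control, while its second probe gave log2 ratios of 0.64 after serum depletion and 0.67 after GCDC. *Acot5* had 3.49 in serum depletion and 1.86 in control (log2 0.90) and was not valid in GCDC. Against the lowest valid level in GCDC, serum depletion was at least 2.96-fold higher and control at least 1.58-fold higher. The 95th percentile of the negative control spots was 2.73 in serum depletion, 2.25 in GCDC and 2.26 in control. Both folds of *Acot5* thus rest on signals near the background.

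Among the peroxins, the PEX11 relatives, which act in membrane growth and division, rose. *Pex11a* rose to 163 in serum depletion and 160.0 in GCDC, against 49.6 in control, with log2 ratios of 1.71 after serum depletion and 1.69 after GCDC. *Pex11g*, its relative, rose to 172 in serum depletion and 209 in GCDC, against 69.8 in control (log2 1.30 in serum depletion and 1.58 in GCDC). A second, dimmer probe of *Pex11g* had log2 ratios of 0.73 after serum depletion and 0.31 after GCDC, short of 2-fold. *Pex16*, which acts with *Pex3* and *Pex19* to place membrane proteins, rose to 139 in serum depletion and 153 in GCDC, against 65.6 in control (log2 1.08 in serum depletion and 1.22 in GCDC). Its partners did not pass 2-fold. *Pex3*, the docking protein, had 181 in serum depletion and 177 in GCDC, against 134 in control, and *Pex19*, the soluble carrier, had 122 in serum depletion and 141 in GCDC, against 151 in control.

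The receptors for imported enzymes stood on different sides of control. *Pex5*, the receptor for the C-terminal signal that most matrix enzymes carry, had 20.3 in serum depletion and 19.99 in GCDC, against 30.7 in control (log2 -0.59 in serum depletion and -0.62 in GCDC). *Pex7*, the receptor for the N-terminal signal of a few enzymes, had 447 in serum depletion and 435 in GCDC, against 289 in control (log2 0.63 in serum depletion and 0.59 in GCDC). Neither was past 2-fold. Of the docking complex, *Pex14* had 70.9 in serum depletion and 83.8 in GCDC, against 89.8 in control, and *Pex13* had 16.5 in serum depletion and 18.2 in GCDC, against 20.7 in control. *Pex6*, an ATPase that pulls the receptor back out, had 49.5 in serum depletion and 50.6 in GCDC, against 63.8 in control. Its membrane anchor *Pex26* and the ubiquitin ligases *Pex2* and *Pex10* had ratios from 0.32 to 0.43 in serum depletion and from -0.05 to 0.51 in GCDC. *Pex5l*, a relative of *Pex5* known from neurons, had 12.4 in serum depletion, 13.96 in GCDC and 12.4 in control. In all, 3 of 14 peroxins rose in each treatment (21.4%) and none fell. Of all genes 14% rose and 10.9% fell in serum depletion, and 13.6% rose and 8.22% fell in GCDC. The peroxins' median lay 0.18 above all genes in serum depletion and 0.10 below in GCDC. There it was 0.06 above under quantile normalization, 0.03 above under cyclic loess and 0.04 above under normexp with quantile normalization.

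Set directly against GCDC, serum depletion had 1 of the 52 members valid on both arrays more than 2-fold higher, where 2.14% of 16527 genes were, and none lower, where 2.92% were. The gene was *Acot1*, 1.11 log2 units higher in serum depletion. *Acot5*, not valid in GCDC and so outside these 52, was at least 2.96-fold higher in serum depletion against the lowest valid level, with signals near the background. *Eci2* was 0.94 and *Acox2* 0.89 higher, and on the other side *Echs1* was lower by a log2 difference of -0.998 and *Acot11* of -0.94, all just short of 2-fold. The members' median was 0.02, against -0.09 for all genes.

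How firmly a gene was past 2-fold differed. Of 10 alternatives of processing, 5 to 7 moved the ratio of such a gene by more than 0.02 log2 units, and the others, such as a stricter filter, left it as it was. *Acot13* and *Pex11a* on both treated arrays and *Eci1* in serum depletion were past 2-fold in each of the 6 that moved them. *Eci2* was past it in serum depletion in 5 of 6, *Acox2* in serum depletion in 4 of 5, and *Pex11g* on both arrays in 5 of 7. *Acot1*, *Acot6* and *Acot11* in serum depletion and *Acaa1a* in GCDC were past it in 3 of 5, and *Etfb* in serum depletion and *Pex16* in GCDC in 3 of 6. *Etfb* in GCDC and *Hadhb* in serum depletion passed in 2 of 6, *Eci1* and *Acot8* in GCDC in 1 of 6, and *Pex16* in serum depletion in 1 of 5. Scaling matters because the signals of the arrays differed before it, with a median of valid probes above the blanks of 29.8 in serum depletion, 25.9 in GCDC and 40.6 in control. Without any scaling 6 members were higher and 4 lower in serum depletion, and 2 higher and 3 lower in GCDC, while the median of all genes was -0.28 in serum depletion and -0.41 in GCDC.

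Over the whole array genes under 10 kb had higher ratios than those of longer span, and the members were read beside this. Among all genes in that class of genomic span, the share that rose was 19.6% with serum depletion and 19.4% with GCDC, and among those of 30 to 100 kb it was 8.82% with serum depletion and 8.35% with GCDC. Genes over 100 kb were near those of 30 to 100 kb, with 9.88% for serum depletion and 8.10% for GCDC. The members had a median span of 21.5 kb, against 17.9 kb for all genes. In the class under 10 kb 4 of 14 members rose with serum depletion and 3 of 13 with GCDC. In that of 10 to 30 kb 5 of 22 rose in each treatment, where 13.8% of all genes rose with serum depletion and 13.4% with GCDC. Among members of 30 to 100 kb 2 of 15 rose and 1 fell in serum depletion, and none of 15 moved past 2-fold in GCDC. The part of gene span in these ratios was not tested.

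**Figure D4:**
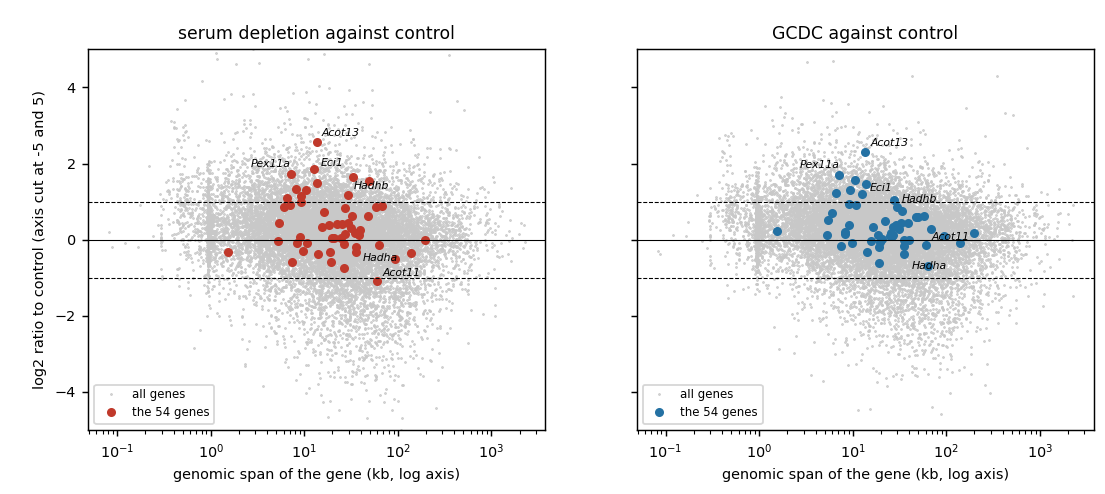
Log2 ratio to control against the genomic span of each gene on a log axis, in serum depletion and in GCDC, with the 54 genes in colour over all genes in grey and dashed lines at 2-fold. The grey points of genes under 10 kb reach higher than those of longer genes, and *Acot13*, *Eci1* and *Pex11a*, with spans of 13.5, 12.6 and 7.18 kb, lie near the top of the coloured ones.

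Genes around the pathway were read from lists named for their function. Among all genes 14% rose and 10.9% fell in serum depletion, and 13.6% rose and 8.22% fell in GCDC. Of 37 measured peroxisome genes outside the members 12 rose (32.4%) and 6 fell (16.2%) in serum depletion. Of 35 such genes in GCDC 10 rose (28.6%) and 6 fell (17.1%). The largest changes were those of *Agps*, which makes the ether bond of plasmalogens and fell to 33.9 in serum depletion and 41.7 in GCDC, against 292 in control (log2 -3.11 in serum depletion and -2.81 in GCDC). *Nudt7*, which cleaves coenzyme A in peroxisomes, rose to 128 in serum depletion and 137 in GCDC, against 30.6 in control (log2 2.06 in serum depletion and 2.16 in GCDC). *Pxmp2*, a channel of the peroxisomal membrane, rose to 315 in serum depletion and 208 in GCDC, against 62.2 in control (log2 2.34 in serum depletion and 1.74 in GCDC). Further genes named here were chosen after their values were seen. *Far1*, which supplies the fatty alcohol for ether lipids, fell (log2 -1.96 in serum depletion and -1.14 in GCDC), and *Gnpat*, which takes the first step of their synthesis, fell in serum depletion (log2 -1.18, and -0.50 in GCDC). The genes of branched chain breakdown *Phyh*, for phytanic acid (log2 1.36 in serum depletion and 1.61 in GCDC), and *Hacl1* (1.49 in serum depletion and 1.09 in GCDC) rose. So did *Scp2*, a sterol carrier and thiolase (1.16 in serum depletion and 1.08 in GCDC), and *Amacr*, a racemase for branched chains and bile acid precursors, rose in serum depletion (1.61, and 0.90 in GCDC). *Fis1* and *Dnm1l*, an anchor and the dynamin of the machinery that splits peroxisomes and mitochondria, moved apart, *Fis1* up (1.54 in serum depletion and 1.37 in GCDC) and *Dnm1l* down (-1.73 in serum depletion and -1.40 in GCDC). The list's median was 0.12 after serum depletion and 0.34 after GCDC, against 0.17 and 0.24 for all genes.

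**Figure D5:**
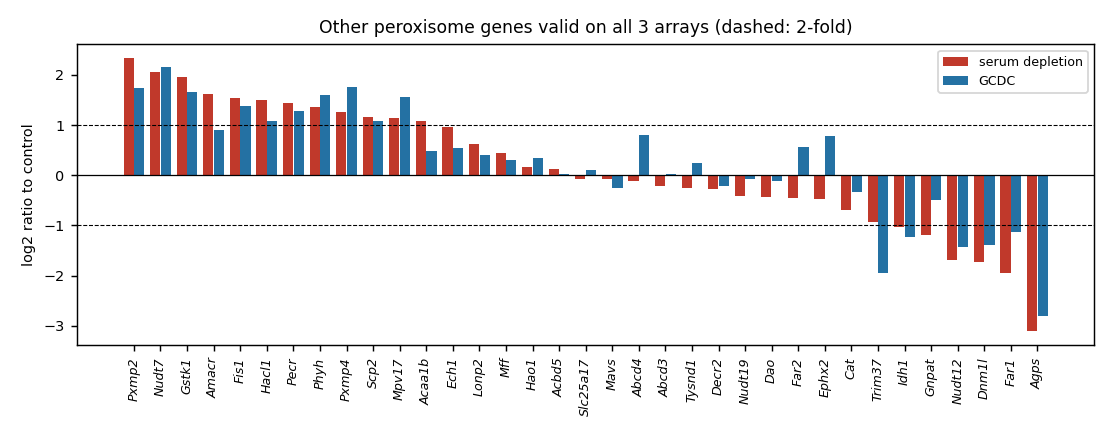
Log2 ratio to control in serum depletion and in GCDC of 35 peroxisome genes outside the 54 members, those valid on all 3 arrays, ordered by serum depletion with dashed lines at 2-fold. *Pxmp2* and *Nudt7* stand at the high end and *Agps*, with -3.11 for serum depletion and -2.81 for GCDC, at the low end.

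Other lists had fewer changes in number, to be read beside the same shares of all genes. Of 15 regulators of fatty acid oxidation 1 rose (6.67%) and 3 fell (20%) in serum depletion. In GCDC 2 rose and 2 fell (13.3% each). *Pparg*, the PPAR of fat cells, fell to 88.6 in serum depletion and 139 in GCDC, against 330 in control (log2 -1.90 in serum depletion and -1.25 in GCDC). *Esrra*, an orphan receptor for oxidative metabolism, rose in serum depletion (log2 1.17) and was at the edge in GCDC (0.996, short of 2-fold). *Prkaa1*, a catalytic subunit of the energy sensor AMPK, fell in serum depletion (log2 -1.15, and -0.84 in GCDC). The other genes of this list past 2-fold are named after their values were seen. *Sirt1* fell in GCDC (log2 -1.02, and -0.89 in serum depletion), and *Rxra* fell in serum depletion (-1.08, and -0.46 in GCDC). The pair that rose in GCDC was *Sirt3*, a mitochondrial deacetylase (log2 1.17, and 0.67 in serum depletion), and *Ppara* (1.08, and 0.19 in serum depletion). The levels of *Ppara* were near the floor on every array, with 1.98 in serum depletion, 3.66 in GCDC and 1.73 in control. A further list held PPAR targets chosen mostly from outside beta-oxidation, with *Cpt1a* and *Ehhadh* as the only measured members on it. It does not stand for all PPAR targets. Of its 15 genes measured in serum depletion 1 rose (6.67%), and of 16 in GCDC 1 rose and 1 fell (6.25% each). These were *Cyp4a12a*, a fatty acid hydroxylase (log2 2.70 in serum depletion and 0.80 in GCDC), *Hilpda*, a lipid droplet protein (-0.38 in serum depletion and 1.05 in GCDC), and *Vnn1*, a pantetheinase (-0.76 in serum depletion and -1.04 in GCDC). The median of that list was -0.17 after serum depletion and 0.20 after GCDC.

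Of genes for uptake, binding and activation of fatty acids 3 of 19 rose (15.8%) and 1 fell (5.26%) in serum depletion. In GCDC 4 of 20 rose (20%) and 1 fell (5%). The fatty acid binding proteins *Fabp5* (log2 1.76 in serum depletion and 1.69 in GCDC) and *Fabp3* (1.58 in serum depletion and 1.33 in GCDC) rose, and so did *Dbi*, which binds acyl-CoA, to 5896 in serum depletion and 4199 in GCDC, against 1900.1 in control. *Acsl4*, an acyl-CoA synthetase for arachidonic acid, fell (-1.28 in serum depletion and -1.21 in GCDC). None of 9 genes of carnitine and malonyl-CoA rose, and 2 fell in serum depletion (22.2%). These were *Crat*, the carnitine acetyltransferase (-1.53, and -0.89 in GCDC), and *Aldh9a1*, an enzyme of carnitine synthesis (-1.11, and -0.48 in GCDC). Of 13 other mitochondrial genes none fell, and 4 rose with serum depletion (30.8%) and 3 with GCDC (23.1%). *Echdc3*, a protein with a hydratase domain (1.77 in serum depletion and 1.94 in GCDC), *Mcee*, an epimerase on the way of propionate (1.38 in serum depletion and 1.49 in GCDC), and *Hsd17b10*, a dehydrogenase of short and branched chains (1.38 in serum depletion and 1.21 in GCDC), were the largest of these.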

How the data were processed

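RNA was hybridised to 3D-Gene arrays with 27456 spots, 1 array for each of 3 conditions, with the RNA of 2 experiments pooled on each. The authors deposited the scanner output, the raw intensity of each spot, and a table of processed intensity. Per the methods, the mean of the blank spots was subtracted and signals over 2 SD of the blanks above it were valid. Here the levels were recomputed from the scanner output from blanks within the 5th to 95th percentiles of their signals, and the valid gene probes of an array were brought to a median of 25, and the validity calls were those of the deposited table. The limit on precision is the number of arrays. Of 23473 gene probes, 20690 had a symbol in the platform annotation. Where a probe was not valid on an array, a fold is written as "at least", against the lowest valid level or the probe's own, whichever was higher. With 1 array for each condition no p-value was computed. The alternatives were 10 settings of scaling, background (normexp with an offset of 50), filter, probe choice and source. The steps were tested on simulated data in which only brighter probes were changed, each by well over 2-fold. Recovery of changes near 2-fold or at low signals was not tested.

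The members and the lists were chosen with earlier results of these data known. Named members were those past 2-fold, the highest and lowest level in each role, usual representatives of each step and those not valid on an array, and from other lists the 3 largest mean changes among genes past 2-fold. Other members are named to show each step. Genome positions and promoters are from RefSeq tables of GRCm38.p6. Cyclic loess, quantile and normexp were run with limma 3.58.1 in R 4.3.3, and all else with numpy 2.4.6, pandas 2.3.3 and matplotlib 3.10.9 under Python 3.11.15.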

Additional observations from a re-analysis of the deposited data

Results flagged for a closer look

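In 4 members serum depletion lay below control and GCDC above it, with the treated arrays further apart than the doubled SD of the control spots, 0.55 on the log2 scale. *Echs1* was lower in serum depletion than in GCDC by a log2 difference of -0.998, *Ehhadh* by -0.84, *Acot7* by -0.60 and *Acot10* by -0.57. The difference was not tested, since each condition has 1 array. Of the ratios to control, only *Echs1* in GCDC (0.90) and *Ehhadh* in serum depletion (-0.75) passed the doubled SD, 0.46 and 0.56. *Echs1* had -0.10 in serum depletion and *Ehhadh* 0.09 in GCDC. *Acot7* had -0.51 in serum depletion and 0.09 in GCDC, and *Acot10* had -0.34 and 0.23. Of 10 alternatives of processing, some of which leave such ratios as they are, 9 kept *Echs1* on both sides of control, 8 *Ehhadh*, 6 *Acot10* and 5 *Acot7*.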

How the results depend on the processing

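Counts of members past 2-fold moved with the scaling between arrays, with normexp, which changes background and scaling together, and in 1 case with the filter on validity. Those higher in serum depletion, 11 as reported, were 7 with cyclic loess, 6 with no scaling, 4 with normexp and quantile normalization and 16 with the median taken from probes valid on every array, and those lower, 1 as reported, were 4 with no scaling and 0 with the median taken from probes valid on every array or with normexp. Those higher in GCDC, 8 as reported, were 5 with quantile normalization, 4 with cyclic loess, 2 with no scaling and 3 with normexp, and those lower, 0 as reported, were 1 with quantile normalization, 1 with cyclic loess and 3 with no scaling. Serum depletion against GCDC gave 1 higher as reported, 2 with the median taken from probes valid on every array, with cyclic loess or with no filter on validity, 3 with no scaling and 0 with normexp. The members' median minus that of all genes in serum depletion, 0.15, became -0.0550 with quantile normalization, -0.0456 with cyclic loess and -0.00672 with normexp, and in GCDC, 0.01, it became -0.0910 with quantile normalization and -0.0891 with cyclic loess. The cause was not tested. Among all genes past 2-fold the share that rose was 56.3% in serum depletion and 62.3% in GCDC, and ranged from 23.996% to 67.4% and from 13.2% to 68.0% over the scalings. The deposited table, the limit of 5 SD, equal 75th percentiles and the mean over the probes of a gene left these counts and medians within 1.5 times or 0.1. No paired analysis was possible because each condition has 1 array and the labels give no replicate numbers. Low signals limit *Acot4*, *Acot5*, *Acot12*, *Acox2* and *Ppara*, which lie near the blanks. *Acot6*, at 4.82 in control, and *Acot11*, at 8.20 in serum depletion, were low too. With normexp and quantile normalization the log2 ratios in serum depletion were 0.18 for *Acot6*, -0.23 for *Acot11* and 0.22 for *Acox2*.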
